A study of Caenorhabditis elegans with 4 samples.

Results

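The peaks described here are the binding regions of the transcription factor PEB-1 on chromosome X of Caenorhabditis elegans. They are all lines of the authors' combined peak list whose chromosome field is X, which gives 380 of 1854 peaks. The list comes from chromatin immunoprecipitation and sequencing (ChIP-seq), in which an antibody recovers a protein together with the DNA it is crosslinked to. The 2 ChIP libraries and 2 inputs (chromatin kept back before the antibody was added) were made from L2 larvae, the second larval stage, of hermaphrodite strain OP86 grown at 20 °C. All 4 libraries share 1 genotype, which is the mutation unc119(ed3) together with the transgene wgIs86. The transgene holds peb-1 fused to TY1, EGFP and FLAG tags and a working unc-119 gene, was brought in by bombardment, and the antibody is directed against GFP. The values therefore describe the tagged protein in 1 transgenic strain, and the genotype names no change of the native peb-1 gene. The replicate 1 list has 230 peaks on X of 1095 in all, and the replicate 2 list has 42 of 153. No peak list of an input was used here, read depth is unknown, and nothing in the labels says whether the replicates were separate cultures.

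PEB-1 contacts DNA through a zinc finger of the FLYWCH type. It is known for binding the enhancer of myo-2, the gene of a myosin heavy chain of the pharyngeal muscle, and it is expressed in the pharynx, the organ with which the worm feeds. A ChIP-seq peak marks a stretch where reads from the antibody exceed those of a control, and its q value is the peak caller's estimate of the false discovery rate. Chromosome X is the sex chromosome of the worm, present as a pair in hermaphrodites, where its transcription is lowered by a dosage compensation complex. The chromosomes of C. elegans have no local centromere and are described by a central part flanked by a left and a right arm. Both peb-1 and myo-2 are X-linked in RefSeq, and unc-119 is on chromosome III. The RefSeq gene table follows another genome build, so whether any peak lies at peb-1, myo-2 or another gene was not analysed here.

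All coordinates are on X of WormBase build WS220, with both end positions included. Strength is given as −log10 of the deposited q value, which ranks peaks within a list and has no common scale across lists. Every peak in the 3 lists has a q value below 0.01. Each replicate has 1 list and peaks of a list are not replicates, so no p-value is given. Shares carry 95% exact binomial (Clopper-Pearson) intervals, densities exact Poisson intervals and medians exact order-statistic intervals. These cover counting error only, and take peaks as independent although some lie close together.

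X carried 21.5 combined peaks per Mb (interval 19.4 to 23.8) over a span of 17.7 Mb, which runs to the last X peak of any list. The 5 autosomes together carried 17.9 per Mb (17.0 to 18.8), and single autosomes ran from 13.6 on V to 26.6 on I. In replicate 1 the density was 13.0 per Mb on X (11.4 to 14.8) and 10.5 on the autosomes (9.80 to 11.2). In replicate 2 it was 2.38 on X (1.71 to 3.22) and 1.35 on the autosomes (1.11 to 1.62). Without the wide region described below, X had 21.1 combined peaks per Mb (19.0 to 23.4). The densities were then 12.9 in replicate 1 (11.2 to 14.6) and 2.15 in replicate 2 (1.52 to 2.95). The replicate 2 interval met the autosomal one, and in replicate 1 the nearest bounds were equal as rounded. X was thus above the pooled autosomes in every list, while chromosome I in the combined list and chromosome II in replicate 1, at 13.2 per Mb, were above X. The X peaks covered 101.9 kb in the combined list, or 0.577% of the span, against 0.316% on the autosomes. Without the wide region they covered 83.8 kb, or 0.475%. In replicate 1 the covered shares were 0.423% on X and 0.225% on the autosomes. In replicate 2 the order was reversed, at 0.111% on X and 0.239% on the autosomes. There a single peak on V, 175768 bp wide, made up most of the 197202 bp covered on the autosomes. Chromosomes I to IV singly covered 0.0134% to 0.0426% in replicate 2. With the wide region left out, X covered 0.363% in replicate 1 and 0.0394% in replicate 2.

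One stretch of X, called the wide region here, stood apart from all others on X, and results are given with and without it. It is a window of 40 kb in which the combined list had 7 peaks, from 2196107 to 2225606, that covered 18094 bp or 17.8% of all bases in X peaks. The widest and strongest peak of the X list lay there, from 2206318 to 2218070, with a width of 11753 bp and a −log10 q of 121.4. In replicate 1 the same ground was called as 2 peaks, from 2208055 to 2210657 (−log10 q 31.0) and from 2210862 to 2218103 (−log10 q 58.4). In replicate 2 it was 1 peak from 2207307 to 2217961, 10655 bp wide, with a −log10 q of 30.6. It was the strongest X region in all 3 lists. The native peb-1 gene is on X, and the transgene carries peb-1 as well. Whether the region holds peb-1 was not analysed here, and the part of transgene copies in these values was not tested. The strongest X peak outside the stretch reached 26.7 in the combined list, 25.3 in replicate 1 and 4.54 in replicate 2. The strongest autosomal peak, on chromosome I in each list, reached 44.7 in the combined list, 59.9 in replicate 1 and 32.3 in replicate 2. In the replicate lists it was thus above the wide region.

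On the right of this peak a second one, from 2218751 to 2219681, was found in all 3 lists, with −log10 q values of 9.31 in the combined list, 7.91 in replicate 1 and 2.22 in replicate 2. On the left lay 3 combined peaks, from 2200467 to 2203259, from 2203512 to 2203967 and from 2204299 to 2205956, with values of 3.57, 2.53 and 2.30. The first and the second overlapped replicate 2 peaks, and none of the 3 overlapped a replicate 1 peak. Replicate 1, which had the longer X list, therefore had no call on the left flank where replicate 2 had 2. The outermost combined peaks of the wide region, at 2196107 to 2196293 and 2225291 to 2225606, were weak (−log10 q 2.14 and 2.12) and were in neither replicate. To the left the next combined peak was 124407 bp away and to the right 17231 bp away. The wide region held 3 replicate 1 peaks and 4 replicate 2 peaks, and accounted for 14.3% of the bases in X peaks of replicate 1 and 64.6% of those of replicate 2.

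**Figure D1:**
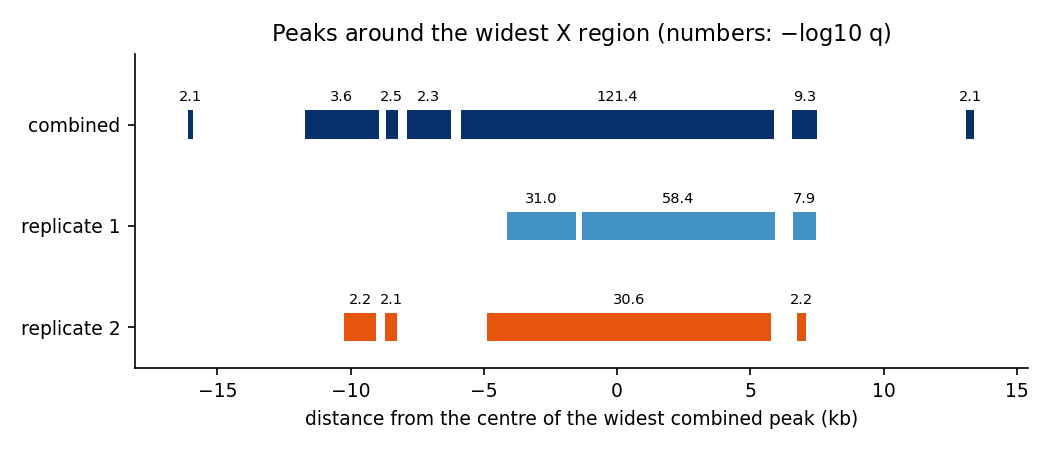
Peaks of the 3 lists in the wide region of X, drawn to scale as distance in kb from the centre of the widest combined peak, with the −log10 q value of each peak above it. The large central peak was called in all 3 lists, as 2 pieces in replicate 1, and the peaks to its left have values of 2.09 to 3.57.

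Outside the wide region the strongest X peaks were much narrower, at 469 to 1959 bp among the first 10. The peak at 10568397 to 10569138 had a −log10 q of 26.7 in the combined list, 25.3 in replicate 1 and 2.23 in replicate 2. It ranked 3 among the 230 X peaks of replicate 1 and 30 among the 42 of replicate 2. The peak at 5811886 to 5812453 had values of 22.9, 19.1 and 3.62 in the combined, replicate 1 and replicate 2 lists. Nearby, the peak at 5840873 to 5841461 had values of 21.2, 16.2 and 4.54, and it ranked 2 on X in replicate 2. The same 1 Mb bin also held the strong peak at 5475053 to 5475657, with values of 14.0, 9.19 and 2.86. Further peaks among the first 10 were found in both replicates. The one at 11474071 to 11474634 had values of 13.8, 11.0 and 2.89, and the one at 12655077 to 12655820 had 13.3, 11.2 and 2.33.

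The remaining 3 of the 10 strongest were absent from replicate 2. They lay at 4962252 to 4962720 (−log10 q 15.5 combined and 12.8 in replicate 1), at 16929498 to 16931456 (15.4 and 8.61) and at 15274816 to 15275996 (13.8 and 13.4). The next strongest peaks without a replicate 2 call were at 10146549 to 10147042 (12.0 and 9.0) and 9999495 to 10000020 (10.7 and 9.25). These 5 ranked between 6 and 19 among the X peaks of replicate 1. With an unknown depth, absence from the shorter replicate 2 list does not show that binding was absent.

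Replicate support was the next question. A combined X peak was counted as supported when it shared at least 1 bp with an X peak of a replicate list. Of the 380 peaks, 193 overlapped replicate 1 (50.8%, interval 45.6 to 55.9), beside 48.1% of all combined peaks. Replicate 2 was overlapped by 38 (10.0%, 7.17 to 13.5), beside 7.07% of all combined peaks. Both replicates were overlapped by 25 (6.58%, 4.30 to 9.56), beside 4.69%, and neither by 174 (45.8%, 40.7 to 50.9), beside 49.6%. A further 168 were in replicate 1 only and 13 in replicate 2 only. The combined list was made from the same ChIP libraries, so these overlaps are not independent evidence of binding.

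Without the wide region the shares were 51.2% for replicate 1, 9.12% for replicate 2, 6.17% for both and 45.8% for neither, on 373 peaks. On the autosomes 47.4% of combined peaks overlapped replicate 1 (44.8 to 49.9) and 6.31% overlapped replicate 2 (5.12 to 7.67). The position of X relative to the autosomes depended on chromosome I, where only 33.7% of peaks overlapped replicate 1. With chromosome I left out, the autosomal share for replicate 1 was 52.5% (49.4 to 55.5), above that of X, and the share in neither replicate was 44.9% (41.9 to 48.0), below that of X. For replicate 2, X stood above each of the 5 autosomes, which ran from 3.24% on I to 8.45% on V, but its interval reached into that range.

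Support followed strength and width within X. The X peaks were ranked by q value and divided into 4 groups of 95. In the strongest group, 84 overlapped replicate 1 (88.4%) and 27 overlapped replicate 2 (28.4%). In the next groups the replicate 1 shares were 52.6% and 47.4%, and in the weakest group 14 overlapped replicate 1 (14.7%) and 2 overlapped replicate 2 (2.11%). By width, 8 of the 87 peaks under 50 bp overlapped replicate 1 (9.20%) and 0 overlapped replicate 2 (upper bound of the interval 4.15%). Of the 98 peaks of 300 bp to under 600 bp, 81 overlapped replicate 1 (82.7%) and 19 overlapped replicate 2 (19.4%). Of the 20 peaks of 600 bp and over, 16 overlapped replicate 1 and 10 overlapped replicate 2. A wider peak meets a 1 bp criterion more easily and the values come from the same libraries, so these gradients are a description.

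**Figure D2:**
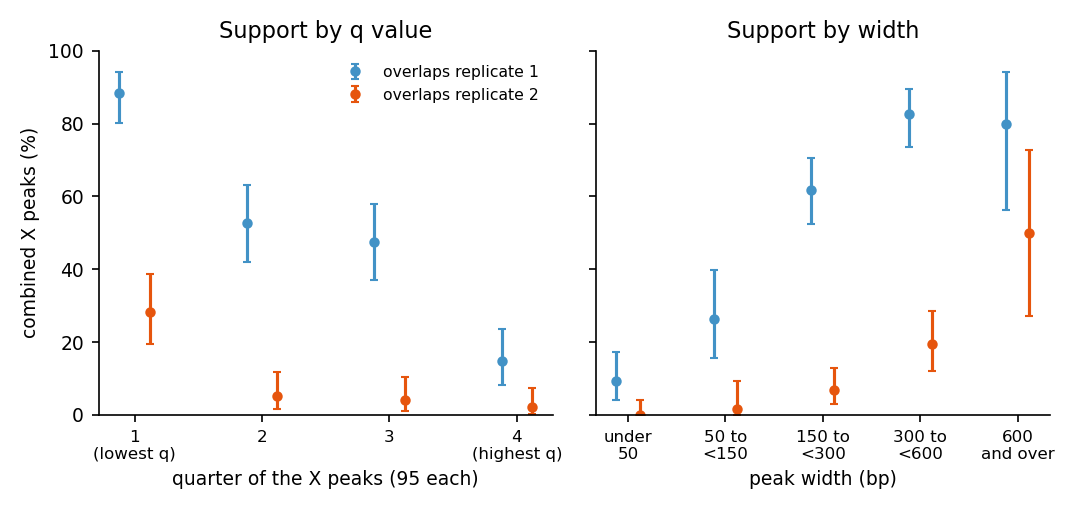
Share of combined X peaks that overlapped a replicate 1 peak (blue) or a replicate 2 peak (orange), in 4 groups of 95 peaks ordered by q value (left) and by peak width in bp (right), with 95% exact binomial intervals as bars. Replicate 1 overlap falls from 88.4% to 14.7% across these groups and rises from 9.20% under 50 bp to 82.7% at 300 bp to under 600 bp.

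The 25 peaks present in both replicates had −log10 q values from 5.02 to 121.4 in the combined list (median 9.31), from 2.57 to 58.4 in replicate 1 (median 7.80) and from 2.00 to 30.6 in replicate 2 (median 2.46). These ranges belong to lists of unknown depth and do not compare strength between them. The peak at 15264340 to 15264674 ranked 93 of 230 on X in replicate 1 (−log10 q 3.21) and 4 of 42 in replicate 2 (3.61). The peak at rank 5 of replicate 2, within the combined peak at 10637284 to 10637961, had values of 9.31 in the combined list, 9.29 in replicate 1 and 3.29 in replicate 2. The weakest of the 25 in the combined list lay at 14312509 to 14312673 (5.02, with 2.57 and 2.32 in the replicates). The peak nearest to the right of the wide region, at 2242838 to 2243145, was also among them, with values of 11.0, 9.17 and 2.45.

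**Figure D3:**
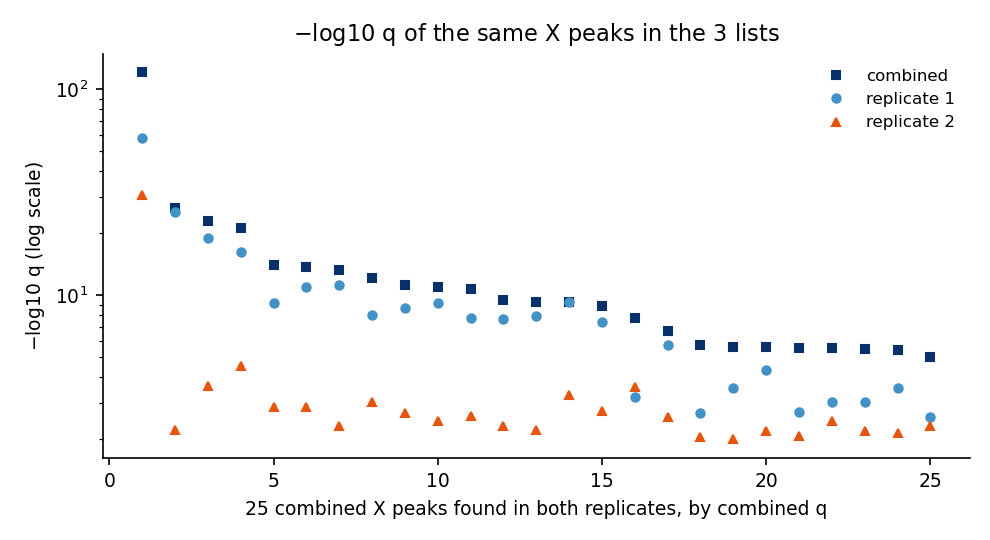
The −log10 q value (log axis) of the 25 combined X peaks found in both replicates, in the combined list (squares), replicate 1 (circles) and replicate 2 (triangles), ordered by combined q value. Replicate 2 values lie between 2.00 and 4.54 except at the first peak, where the value is 30.6.

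Overlapping calls were also compared in position and width. Against replicate 1, 193 pairs had a median distance between midpoints of 14 bp, 185 (95.9%) were within 100 bp and the largest distance was 2288 bp. Against replicate 2, 38 pairs had a median distance of 31 bp, 28 (73.7%) were within 100 bp and the largest was 680 bp. Without the wide region the largest distances were 558 bp against replicate 1 and 149 bp against replicate 2. Pairs were required to overlap, which by itself keeps midpoints close. The combined call was wider than the replicate 2 call at all 38, by a median of 210 bp, whereas against replicate 1 it was wider at 103 and narrower at 83, with a median difference of 3 bp. The bases in replicate 1 X peaks lay inside combined peaks for 88.5% of their length, and those of replicate 2 for 98.2%, or 95.1% without the wide region.

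The 13 peaks with replicate 2 support alone had −log10 q values of 2.26 to 4.86 in the combined list. Their median was 3.32, against 3.31 for all combined X peaks. The strongest were at 14503293 to 14503531 (4.86, and 2.67 in replicate 2) and 1311130 to 1311293 (4.85 and 2.57). Their median width was 268 bp, against 283 bp for the 168 peaks in replicate 1 only. Some replicate calls had no counterpart in the combined list. They numbered 37 of 230 in replicate 1 (16.1%) and 4 of 42 in replicate 2 (9.52%), and none of them was shared between the replicates. The strongest lay in replicate 1 at 10618812 to 10618936 (−log10 q 4.20) and 11966355 to 11966713 (3.79), and in replicate 2 at 384803 to 384842 (2.48).

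X peaks were wider than autosomal ones by the median in each list. The combined median was 194 bp on X (interval 170 to 215, quartiles 64.8 and 340.2), against 145 bp on the autosomes (133 to 156). With chromosome I left out, the autosomal median was 157 bp (143 to 171), an interval that meets that of X. Single autosomes ran from 118 bp on I to 169 bp on II. In replicate 1 the medians were 263.5 bp on X (230 to 287) and 190 bp on the autosomes (177 to 198), with single autosomes at 172 to 196 bp. In replicate 2 they were 179.5 bp on X (122 to 242) and 105 bp on the autosomes (74 to 132), with single autosomes at 84 to 146 bp. The X median was above that of each of the 5 autosomes in all 3 lists. In replicate 1 the X interval was clear of every autosome, in the combined list only of chromosome I, and in replicate 2 of none. Without the wide region the X medians were 192 bp, 259 bp and 162.5 bp. The combined list shares its ChIP libraries with the replicate lists, and the difference was not tested.

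For strength, the median −log10 q was 3.31 on X (3.10 to 3.45) and 3.29 on the autosomes (3.26 to 3.44) in the combined list, and 2.89 (2.73 to 3.10) and 2.74 (2.72 to 2.83) in replicate 1. Peaks with a q value under 1e-05 made up 22.1% of X peaks (84 of 380, interval 18.0 to 26.6), beside 18.3% of all combined peaks. In the combined list chromosome I was above X in this share, at 22.9%, and in the median, at 3.63. In replicate 1 they made up 17.0% on X (12.3 to 22.4) and 11.3% on the autosomes (9.29 to 13.6). X was above each of the 5 autosomes there in this share and in the median. Its intervals met those of V, at 8.94 to 19.9 for the share and 2.67 to 3.03 for the median. With the wide region left out, the replicate 1 share on X was 15.9%. In replicate 2 the share was 1 of 42 on X and 6 of 111 on the autosomes. Peaks under 50 bp made up 22.9% (87 of 380, interval 18.8 to 27.5), beside 25.2% of all combined peaks. Chromosome II, at 22.6%, was below X in the combined list. In replicate 1 this share was 8.70% on X (5.39 to 13.1) and 15.7% on the autosomes (13.4 to 18.3). In replicate 2 it was 14.3% on X (6 of 42, interval 5.43 to 28.5). The autosomes were at 30.6% there (34 of 111, 22.2 to 40.1), an interval that meets that of X.

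Width and replicate support were linked on X. The 25 peaks in both replicates ran wide, with a median of 477 bp and a range of 165 to 11753 bp. The 174 in neither had a median of 64.5 bp, with quartiles of 20 and 169.8 bp, and 79 of them were under 50 bp. Some very narrow peaks were nonetheless strong by q value. The 3 strongest X peaks found in neither replicate were 2, 13 and 46 bp wide. They lay at 8153944 to 8153945 (−log10 q 5.79), 16233502 to 16233514 (5.56) and 6421865 to 6421910 (5.36). Of the 9 peaks in the strongest group of 95 without any replicate support, 8 were under 50 bp.

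A width of 1000 bp was reached by 5 combined X peaks (1.32%, interval 0.429 to 3.04), and 3 of them lay in the wide region. The others were the strong peaks at 16929498 to 16931456 and at 15274816 to 15275996. They were 1959 and 1181 bp wide in the combined list, and 902 and 1148 bp in replicate 1. With the wide region left out, the X share was 0.536% (0.0650 to 1.92). On the autosomes it was 0.407% (6 of 1474, 0.150 to 0.884).

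**Figure D4:**
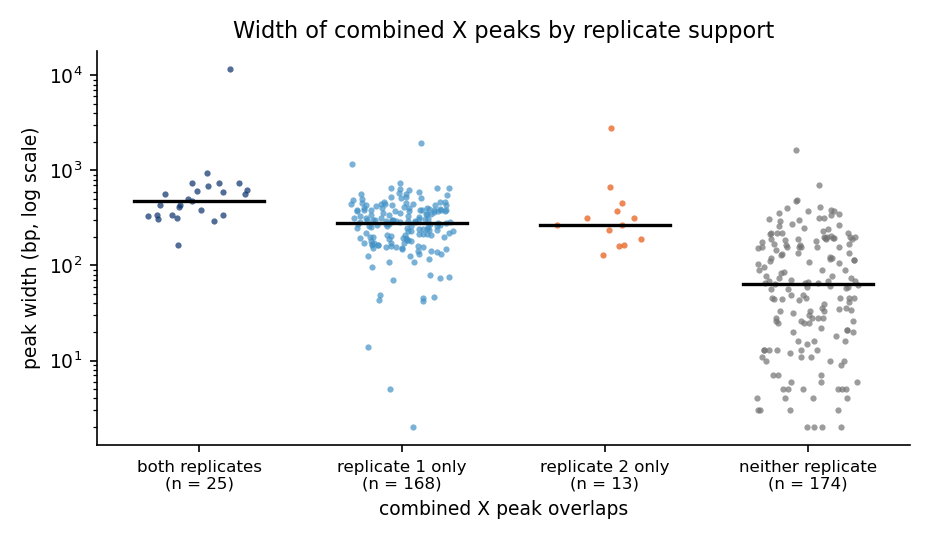
Width in bp (log axis) of each combined X peak, grouped by the replicate lists it overlapped, with the median of each group as a black line. The medians are 477 bp for both replicates, 283 bp for replicate 1 only, 268 bp for replicate 2 only and 64.5 bp for neither.

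Along the chromosome, peaks were present in every 1 Mb bin of the combined list. The 17 complete bins held 8 to 32 peaks with a median of 22.0, and the variance over the mean was 1.83, where a value near 1 would be that of independent, even placement. The fullest bin was 16000001 to 17000000, with 32 combined, 20 replicate 1 and 3 replicate 2 peaks. It was followed by 12000001 to 13000000 with 30, 16 and 2. The emptiest bin was 7000001 to 8000000, with 8 combined, 6 replicate 1 and 1 replicate 2 peaks. The bin at 1000001 to 2000000 came next with 12, 6 and 2. The fullest bin was also the fullest in replicate 1, and the 2 emptiest bins were the emptiest there too. The complete bins of replicate 1 held 6 to 20 peaks with a variance over the mean of 1.43. Replicate 2 had 0 to 6 peaks in a bin, with a variance over the mean of 1.13, and 4 of the 6 in its fullest bin, 2000001 to 3000000, belonged to the wide region. Over the 17 bins, Spearman's rho between replicate 1 and replicate 2 counts was 0.28, a description over bins of 1 chromosome. Without that region the combined bins still ran from 8 to 32 with a variance over the mean of 2.06, and the bin that contains it fell from 20 to 13 peaks.

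The left part of the centre held few peaks with replicate 2 support. The 3 bins from 6000001 to 9000000 held 47 combined peaks. Of these, 17 overlapped replicate 1 (36.2%, interval 22.7 to 51.5) and 1 overlapped replicate 2 (2.13%, 0.0539 to 11.3). On the rest of X, 176 of 333 overlapped replicate 1 (52.9%, 47.3 to 58.3) and 37 overlapped replicate 2 (11.1%, 7.94 to 15.0). The intervals met for both replicates. Some single bins elsewhere were also low in replicate 2 overlap. Those from 3000001, 4000001 and 13000001 each had 1 such peak, among 18, 25 and 26. The 3 bins from 6000001 to 9000000 were chosen after their values were seen. Within them the bin at 7000001 to 8000000 had few peaks but 6 of 8 in replicate 1, while that at 8000001 to 9000000 had 17 peaks with 13 in neither replicate. At the right end, the incomplete last bin from 17000001 held 15 peaks in 0.657 Mb, or 22.8 per Mb, with 11 in neither replicate.

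**Figure D5:**
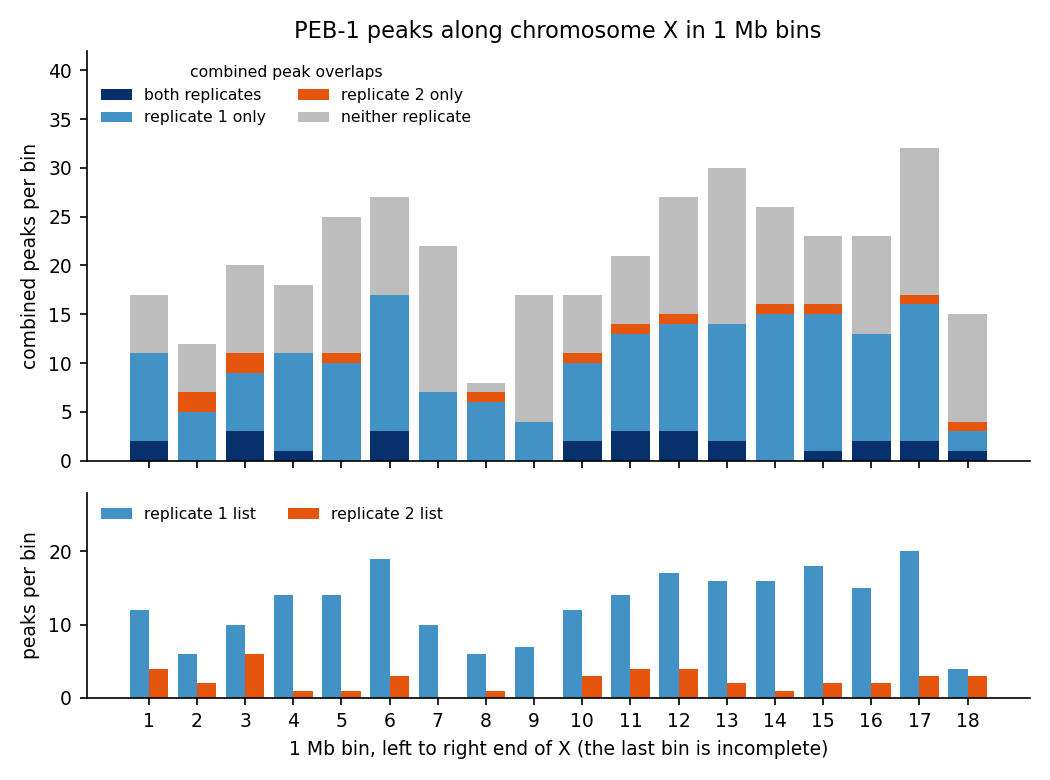
Number of combined X peaks per 1 Mb bin from the left to the right end, coloured by the replicate lists they overlapped (top), and number of replicate 1 and replicate 2 peaks in the same bins (bottom). The combined counts run from 8 in bin 8 to 32 in bin 17, and bin 18 is incomplete.

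The span was then divided into a left arm, a centre and a right arm, each with 33.3% of the length, and the right arm was fullest. The left arm held 118 peaks (31.1%, interval 26.4 to 36.0), the centre 109 (28.7%, 24.2 to 33.5) and the right arm 153 (40.3%, 35.3 to 45.4). Replicate 1 gave 32.2%, 27.8% and 40.0%. Replicate 2, on 42 peaks, gave 40.5%, 26.2% and 33.3%, and without the wide region 34.2%, 28.9% and 36.8%. Without that region the combined shares were 29.8%, 29.2% and 41.0%. On the autosomes the centre held 37.6% of combined peaks (35.1 to 40.1), and no autosome was below X, the lowest being III at 31.8%. In replicate 1 all 5 autosomes were likewise above X, at 33.7% to 47.9%, and in replicate 2 the autosome II, at 21.7%, was below it. With the wide region left out, X was at 28.9% in replicate 2, where chromosome I, at 26.7%, was then below it too. In the combined list and in replicate 1 X stayed below all 5 autosomes, at 29.2% and 28.2%.

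The low share of the central 33.3% of the span, at 28.7%, had an interval (24.2 to 33.5) that includes 33.3%. The central 50% of the span held 52.1% of combined X peaks (47.0 to 57.2), an interval that includes 50%. The autosomes were not recomputed for the central 50%. In 4 equal parts from left to right the counts were 72, 91, 107 and 110. The right 50% of the span held 57.1% of combined peaks (52.0 to 62.1), 58.3% of replicate 1 peaks (51.6 to 64.7) and 57.1% of replicate 2 peaks (41.0 to 72.3). Without the wide region these were 58.2%, 59.0% and 63.2%. The right part was thus fuller in the combined list and in replicate 1 under both divisions. In replicate 2 the left arm held more peaks than the right until the wide region was left out. For the centre, the intervals of the combined list included the even share under both divisions. Support and width differed little among arms and centre. Replicate 1 overlap was 52.5%, 48.6% and 51.0% from left to right and the median widths were 219.5, 196 and 186 bp.

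Neighbouring combined peaks on X were separated by a median of 26148 bp (22575 to 30311), with quartiles of 7102 and 64521 bp and a range of 215 to 384691 bp. The autosomal median was 27137 bp (24429 to 30379). Gaps of up to 1000 bp made up 27 of 379 on X (7.12%, interval 4.75 to 10.2) and 107 of 1469 on the autosomes (7.28%, 6.01 to 8.73). Without the wide region there were 23 of 372 (6.18%). Joining across such gaps placed 50 of the 380 X peaks (13.2%) in close groups, beside 200 of 1474 on the autosomes (13.6%). With the wide region left out, the X share was 12.1%. The X peaks formed 23 such groups, of which 21 were pairs. The larger groups were 1 of 5 peaks from 2200467 to 2219681, inside the wide region, and 1 of 3 peaks from 15274003 to 15277020, which contains the strong peak at 15274816. In the latter, 1 of the 3 peaks overlapped replicate 1 and 0 overlapped replicate 2.

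The 50 closely spaced X peaks had a median width of 319.5 bp, and 31 overlapped replicate 1 (62.0%, interval 47.2 to 75.3). The 330 others had a median of 184 bp and 162 overlapped replicate 1 (49.1%, 43.6 to 54.6). Without the wide region the 45 remaining close peaks had a median of 273 bp, and 64.4% overlapped replicate 1.

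The widest empty gap ran from 7438329 to 7823019, over 384.7 kb, and neither replicate list had a peak inside it. The second, from 1644240 to 1960928 over 316.7 kb, was also empty in both replicates. The third, from 8603265 to 8835799 over 232.5 kb, held 1 replicate 1 peak. The widest gap of replicate 1, from 7265314 to 7994368 over 729.1 kb, contains the first of these and held 2 combined peaks. In replicate 2 the widest gap ran from 5841410 to 7823047 over 1981.6 kb. Inside it the combined list had 29 peaks, of which 13 overlapped replicate 1 and 9 had a q value under 1e-05. The median gap was 38633 bp in replicate 1 (29844 to 62283) and 278123 bp in replicate 2 (174450 to 424283).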

How the data were processed

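The files are 3 peak lists by the authors, 1 for each ChIP replicate and 1 that combines them. Per the file headers they are on WormBase WS220, and their source field names PeakSeq as the caller. The value of each peak is a q-value deposited by the authors. For the aligner, settings, depth and merging of replicates, the sources used here give nothing. A q value depends on depth, so list lengths can differ through depth alone.

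The X members, the summaries and the wide region were chosen with earlier results of these data known. Peaks named are the 10 strongest, the 5 widest and those of the wide region, regions of 3 or more joined peaks, the 3 widest gaps, the extreme bins, the strongest peaks of each replicate, the 5 strongest without replicate 2 and the 3 strongest in neither. Others, such as the weakest of the peaks in both replicates, the second fullest and second emptiest bins, the peaks in replicate 2 only and replicate peaks absent from the combined list, were named after their values were seen. Peaks were binned by midpoint, and a peak belonged to the wide region if it overlapped a fixed window of 40 kb with round bounds. For pairs, the replicate peak with the largest overlap was used. No difference was tested, since each group has 1 list. Counting of overlaps, bins and gaps was checked on simulated lists. A WS220 genome or annotation was not used here, so no sequence or gene is given. Python 3.11.15, NumPy 2.4.6, SciPy 1.17.1, pandas 2.3.3 and Matplotlib 3.10.9 were used.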

Additional observations from a re-analysis of the deposited data

How the results depend on the processing

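Of 77 values recomputed under other settings, 50 stayed within the counting interval of the reported value and 27 moved out of it. This count does not measure stability, because several settings fix the direction of a change in advance. A list with fewer peaks has a lower density, keeping the stronger peaks raises the median −log10 q, and a lower limit on width raises the median width. Leaving out the wide region moved none of 12 out of its interval, and neither did joining close peaks (7 values) or the 3 other overlap criteria (12 values). Keeping the stronger 50% of each list gave 10.8 peaks per Mb, 17.0 per Mb in the fullest bin, a median width of 281 bp, a median gap of 54746 bp, 2.12% of gaps up to 1000 bp, 16.8% of peaks under 50 bp and a median −log10 q of 4.79. Keeping peaks of at least 50 bp gave 16.6 per Mb, a median width of 259 bp, a median gap of 30400 bp, 62.1% in replicate 1, 34.1% in neither and, by construction, 0% under 50 bp. The replicate lists in place of the combined list gave 2.38 to 13.0 peaks per Mb, 6.0 to 20.0 in the fullest bin, 26.2% to 27.8% in the centre, median widths of 179.5 to 263.5 bp, median gaps of 38633 to 278123 bp, 4.88% to 6.11% of gaps up to 1000 bp, 8.70% to 14.3% under 50 bp and median −log10 q of 2.45 to 2.89. The central 50% of the span held 52.1%, and limits of 500 and 2000 bp gave 3.17% and 10.8% of close gaps. Both follow from the definition. No paired analysis was possible because no peak list of an input is at hand and no test was run. Depth is unknown for both replicates, so a peak missing from either list may have been undetectable, which was not tested.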
